A study of Mus musculus with 6 samples.

Results

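The genes described here are the keratin-associated protein (Krtap) genes of the cluster on mouse chromosome 16. They are the 24 genes of 33308 in the deposited table whose symbol begins with Krtap and which lie on chromosome 16, between positions 88610705 and 89571183 of GRCm38, an interval of 960 kb. The table holds another 33 Krtap genes, of which 23 lie on chromosome 11, 5 on chromosome 7, 3 on chromosome 10 and 2 on chromosome 1. RNA-seq was made from mouse skin in 2 groups of 3 samples. Controls were untreated, and the other mice were given osimertinib, a kinase inhibitor aimed at the EGF receptor, for 42 days before the skin was taken. The study names skin problems caused by osimertinib as its subject. Strain, sex, age, dose, route and body site are not stated in the labels. The labels do not state that samples of a group came from separate mice, and the p-values then reflect only how these libraries vary, which may in part be technical variation.

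Keratin-associated proteins are small proteins of the hair shaft. They fill the space between keratin filaments in the cortex and cuticle cells of the shaft and are cross-linked to hair keratins as these cells harden. They are made late in the differentiation of matrix cells, only while a follicle is growing a hair, and are absent from the interfollicular epidermis. The family is divided by composition into high glycine-tyrosine, high sulfur and ultra-high sulfur classes, and the subfamily number in the symbol follows sequence similarity. In whole skin, fewer cells of a type and less RNA per cell cannot be told apart.

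By subfamily number, 17 members belong to the high glycine-tyrosine class (numbers 6, 7, 8, 16, 19, 20, 21 and 22) and 7 to numbers usually classed as high sulfur (11, 13, 14, 15, 24, 26 and 27). Coding sequences of the GENCODE mouse M21 transcripts were read for their composition. In the 16 glycine-tyrosine members with a coding sequence, codons for glycine and tyrosine made up between 29.9% (Krtap7-1) and 69.2% (Krtap6-1) of all codons, with a median of 63.1%. In the 7 others they made up 5.94% (Krtap27-1) to 24% (Krtap15). Cysteine codons did not separate the classes, at 0% to 16.7% (median 8.09%) in the first and 4.0% to 12% (median 8.98%) in the second. The glycine-tyrosine members were also shorter, with a median of 81 codons against 183. Each transcript used has 1 exon, 19 members lie on the minus strand and 5 on the plus strand. Krtap19-9a is annotated as a processed pseudogene and has no coding sequence.

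Sequences before the transcription start were found in RefSeq (GRCm38.p6) for 22 of the 24 members, and 150 bases are shown for the most abundant member of each of 5 subfamilies, because each holds a TATA word. Such words are found in the TATA box, an element that positions transcription initiation. Capitals mark TATAAA or TATATA on either strand, and each sequence ends at the base before the start. The regions are chr16:89487953-89488102 (minus strand), chr16:89571184-89571333 (minus), chr16:89010760-89010909 (minus), chr16:88828859-88829008 (plus) and chr16:88826146-88826295 (minus), in the order of the lines.
Krtap8-1: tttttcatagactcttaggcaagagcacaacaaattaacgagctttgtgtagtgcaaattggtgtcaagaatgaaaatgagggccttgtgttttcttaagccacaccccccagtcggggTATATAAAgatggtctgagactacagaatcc
Krtap11-1: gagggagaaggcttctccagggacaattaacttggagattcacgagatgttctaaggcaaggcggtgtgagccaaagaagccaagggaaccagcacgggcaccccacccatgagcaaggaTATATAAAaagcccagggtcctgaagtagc
Krtap22-2: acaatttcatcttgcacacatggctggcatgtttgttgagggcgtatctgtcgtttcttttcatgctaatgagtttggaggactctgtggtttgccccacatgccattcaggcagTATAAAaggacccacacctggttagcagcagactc
Krtap15: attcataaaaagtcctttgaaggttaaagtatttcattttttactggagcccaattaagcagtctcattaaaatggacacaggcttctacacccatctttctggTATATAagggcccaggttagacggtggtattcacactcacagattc
Krtap14: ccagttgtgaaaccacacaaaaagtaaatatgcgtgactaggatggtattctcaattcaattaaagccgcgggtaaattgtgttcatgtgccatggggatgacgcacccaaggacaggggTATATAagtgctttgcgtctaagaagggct

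All 22 members had TATAAA or TATATA on either strand within 250 bases before the start, against 15.6% of the 32851 windows of the same length in the RefSeq table. A match began 25 to 35 bases before the start in 13 of the 22 (59.1%), against 2.73% of all windows. Of the 5 sequences printed, Krtap15 is outside this range, with its match beginning 46 bases before the start. TATATA was added to the search after the sequences had been seen. The words CTTTGAA and CTTTGTT, bound by LEF/TCF factors of the Wnt pathway, were found on either strand in 6 of 22 members (27.3%) and 9.17% of all windows. A word set for HOXC13, a homeodomain regulator of hair keratin genes (TTAATNAA, TTAATNAG, TTAATNGA, TTAATNGG, TTTATNAA, TTTATNAG, TTTATNGA and TTTATNGG, either strand), was found in 10 of 22 (45.5%) and 17.2% of all windows. The last set can overlap a TATA match, as it does in Krtap16-3 and Krtap6-5. A match is a word in the window and shows no binding.

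**Figure D1:**
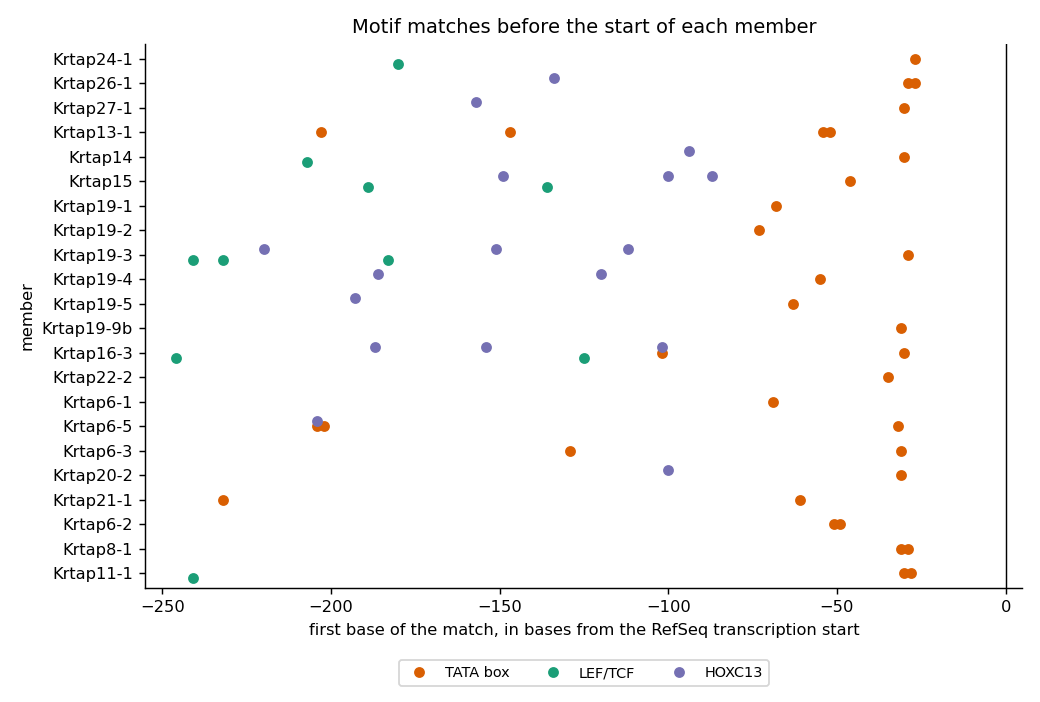
Positions of motif matches in the 250 bases before the RefSeq start of 22 members. The x axis is the first base of the match in bases from the start (0, vertical line), rows are members in chromosome order, and colours are the TATA words, the LEF/TCF words and the HOXC13 words. TATA matches gather 25 to 35 bases before the start in 13 members, and no LEF/TCF or HOXC13 match lies in the last 60 bases.

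Transcripts of this cluster were abundant in the skin of osimertinib-treated mice and of 1 control, and nearly absent from the other 2 controls. The 24 genes together held 19, 4840 and 59 counts in controls 1, 2 and 3, and 15530, 188534 and 7124 counts in osimertinib samples 1, 2 and 3. Expressed as CPM, that is with TMM scaling of each library, the sums were 0.347, 106.9 and 0.930 CPM in controls, against 267.6, 2937 and 116.1 CPM in treated samples. Every treated sample lay above every control, but in CPM osimertinib 3 was only slightly above control 2. The gap was wider in summed FPKM, which carry no TMM factor (157.7 in osimertinib 3 against 108.6 in control 2). Osimertinib 2 was far above all others. The group means were 36.1 ± 61.4 and 1107 ± 1587 CPM (SD, n = 3 each), a ratio of 30.7. The difference of mean log2 sums was 7.11, with p = 0.1 by a two-sided exact permutation test, the smallest p that 3 against 3 samples can give. It was 9.63 without control 2 and 5.76 without osimertinib 2.

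Library totals ran from 54112624 to 60719064 counts, and a count of 0 allows up to 3 counts, or 0.0467 to 0.0663 CPM. Of the 24 members, 19 were at 0 in control 1, 15 in control 3, 1 each in control 2 and osimertinib 1, and 0 in osimertinib 2 and 3. Epidermal markers such as Krt5, Krt14 and Krt10 summed to 11028 to 35263 CPM in every library. Skeletal muscle markers (10 of 10 in the table) summed to 29053, 114012 and 176 CPM in controls 1, 2 and 3. In osimertinib 1, 2 and 3 they summed to 52093, 28448 and 47332 CPM. Control 2, the control with most hair shaft transcript, also held most muscle transcript. Osimertinib 2, with most hair shaft transcript of all, held the least muscle transcript of the treated samples. The part of muscle content in these results was not tested.

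**Figure D2:**
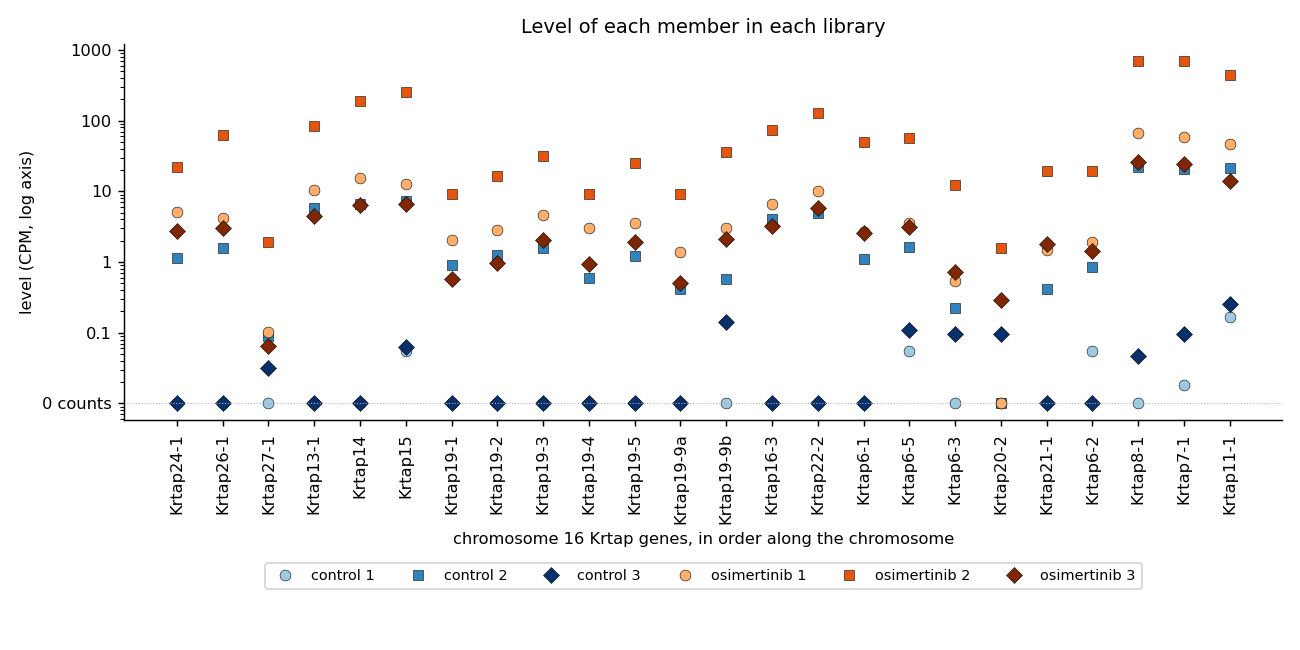
Level of each of the 24 members in each of the 6 libraries (points, CPM on a log axis), with genes in chromosome order and libraries without a count drawn on the dotted line, where points overlap. All 24 members were highest in osimertinib 2, and control 2 was the highest control in 23.

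Over single genes, 15 of the 24 members had every treated sample above every control, against 7.53% of the 31732 genes with any count. With FPKM in place of TMM-scaled CPM the number was 19, against 7.95% of the same genes. In CPM it was 23 without control 2 or without osimertinib 3. Leaving out a library can only keep or raise this number, and the share over all genes was not computed for it. The fit across genes took those with a mean FPKM (fragments scaled to transcript length and library size) of 1 or more over the 6 libraries, 13498 genes and 22 members. The other 2 members, Krtap27-1 and Krtap20-2, had mean FPKM of 0.512 and 0.550, and the lowest member tested, Krtap24-1, had 2.92. Since the members passed mainly through treated samples, the values over those tested are a description. All 22 had a positive log2 fold change, from 3.73 to 5.87 with a median of 4.83, while the median of all genes tested was −0.05 and 45.3% of them were positive. By the quasi-likelihood test of edgeR with Benjamini-Hochberg adjustment, 0 of 22 members passed an adjusted p of 0.05, against 0% of all genes tested (0 of 13498). At an unadjusted p under 0.05 there were 10 members, against 7.22% of all genes tested for that direction. DESeq2, which gave an adjusted p for 14 of the 22, called 0 members, against 3.42% of all genes as higher. The 8 without one included Krtap19-9b, Krtap6-3 and Krtap21-1, which had the 3 smallest unadjusted p in edgeR. The DESeq2 result therefore does not cover them.

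The unadjusted count changed when single libraries were left out. It was 22 without control 2, 2 without control 1 or control 3, 6 without osimertinib 1, 9 without osimertinib 3 and 1 of 18 without osimertinib 2. The share over all genes was not computed for these refits, so the numbers are a description. With no filter beyond 1 count, all 24 members had a positive fold change, with a median of 4.78, and 14 had an unadjusted p under 0.05 in edgeR, against 5.29% of all genes as higher.

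**Figure D3:**
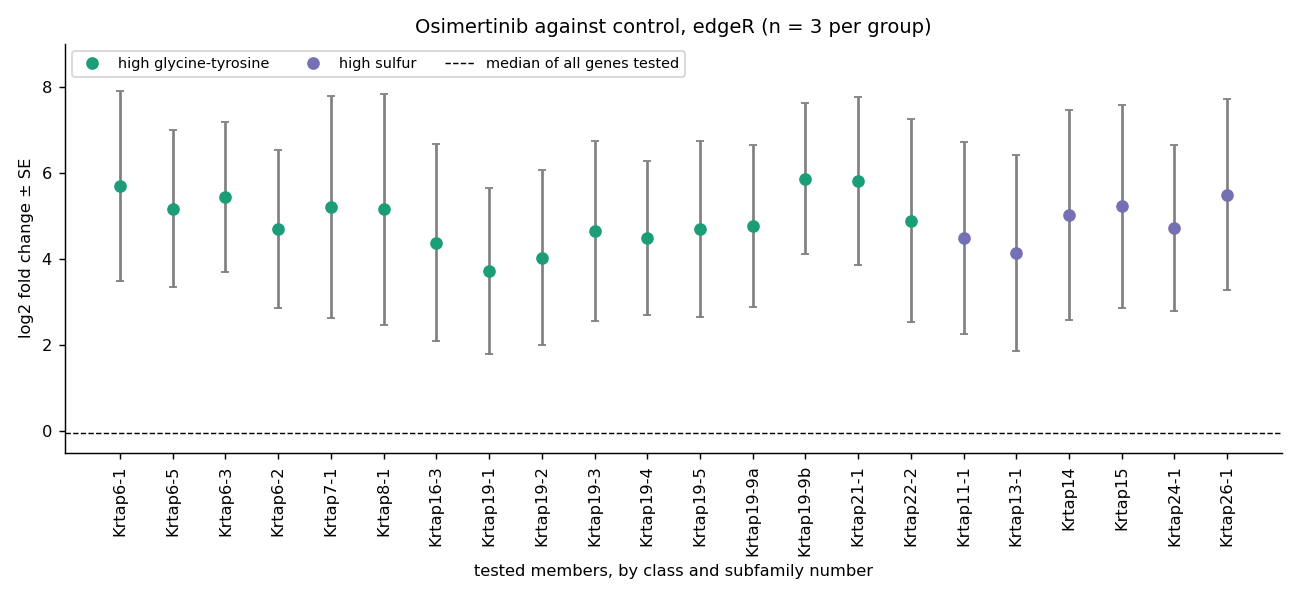
Log2 fold change of osimertinib over control for the 22 tested members, with SE bars from edgeR (n = 3 per group), ordered by class and subfamily number. The dashed line is the median of all genes tested, −0.05. Points lie between 3.73 and 5.87, with error bars that overlap throughout.

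The 3 most abundant members lie at the far end of the cluster. Krtap8-1 (ENSMUSG00000059632, 89487379 to 89487952), a short glycine-tyrosine protein, had 0, 22.1 and 0.0473 CPM in controls 1, 2 and 3 and 66.4, 695 and 25.9 CPM in osimertinib 1, 2 and 3. Its log2 fold change was 5.16 ± 2.69 (SE, n = 3 per group, adjusted p = 0.447 by edgeR). Krtap7-1 (ENSMUSG00000056706, 89507703 to 89508323), which has the lowest glycine-tyrosine content of its class, had 0.0183, 20.9 and 0.0946 CPM in controls, against 58.7, 689 and 24.7 CPM in treated samples. In both genes the treated samples stood above the controls, with osimertinib 3 and control 2 close to each other. Krtap11-1 (ENSMUSG00000091212, 89570176 to 89571183), of the high sulfur numbers, had 0.164, 21.7 and 0.252 CPM in controls, against 47.1, 436 and 13.999 CPM in treated samples. Here the groups overlapped, since control 2 exceeded osimertinib 3. Its log2 fold change was 4.49 ± 2.24 (SE, adjusted p = 0.431 by edgeR). These 3 genes held 60.5% of the cluster's counts in control 2 and 64.3%, 62.0% and 55.6% in osimertinib 1, 2 and 3. Per length, Krtap8-1 reached 1113 FPKM in osimertinib 2, Krtap7-1 1019 and Krtap11-1 397.

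Subfamily 6 has 4 members, the type II glycine-tyrosine proteins, and in all 4 the treated samples lay above the controls. Krtap6-5, the most abundant per length, had 0.0548, 1.64 and 0.110 CPM in controls, against 3.58, 57.0 and 3.08 CPM in treated samples, with a log2 fold change of 5.17 ± 1.83 (SE). Krtap6-3 had 0, 0.221 and 0.0946 CPM in controls, against 0.534, 12.4 and 0.733 CPM in treated samples, with the second smallest unadjusted p of the cluster (0.0197 in edgeR, adjusted p = 0.290). In this gene osimertinib 3 was not below osimertinib 1, unlike in the abundant genes, but the 95% counting interval of their ratio (0.446 to 1.18) includes 1. Krtap6-1 and Krtap6-2 had log2 fold changes of 5.70 ± 2.21 and 4.71 ± 1.84 (SE). Krtap6-1 shares 97.7% identity over 264 bases with 1110025L11Rik, a neighbour in the cluster, so reads may have been divided between them in an unknown way.

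Subfamily 21 has a single member in the table, Krtap21-1, whose nearest relative by sequence is Krtap6-2 (89.4% over 359 bases). It had 0, 0.420 and 0 CPM in controls, against 1.499, 19.1 and 1.83 CPM in treated samples. All treated samples exceeded the controls, and the log2 fold change was 5.81 ± 1.95 (SE, unadjusted p = 0.0235 and adjusted p = 0.303 by edgeR). Krtap22-2, the sole member of its number, had 0, 4.97 and 0 CPM in controls, against 9.99, 130.1 and 5.87 CPM in treated samples. Its groups were separated by a small margin, with a log2 fold change of 4.90 ± 2.36 (SE). Krtap20-2 was near the floor, with 0, 0 and 6 counts in controls and 0, 101 and 18 in treated samples.

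Subfamily 19 is the largest, with 7 members side by side, and its fold changes spanned the whole range of the cluster. Krtap19-9b had 0, 0.575 and 0.142 CPM in controls, against 3.07, 35.8 and 2.09 CPM in treated samples. It had the smallest unadjusted p of the cluster (0.0148, adjusted p = 0.273, edgeR) at a log2 fold change of 5.87 ± 1.76 (SE), and its groups were separated. Krtap19-1 was at the other end, with 0, 0.906 and 0 CPM in controls, against 2.05, 9.08 and 0.570 CPM in treated samples, where control 2 exceeded osimertinib 3 (3.73 ± 1.93, SE). In Krtap19-2 the groups overlapped in CPM but not in FPKM, while in Krtap19-3, Krtap19-4, Krtap19-5 and the pseudogene Krtap19-9a they were separated, with log2 fold changes of 4.49 to 4.76. Krtap19-1 and Krtap19-2 share 90.4% and 90.6% identity with Krtap19-3 over 281 and 374 bases.

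Krtap16-3, beside subfamily 19 and similar to it in sequence, had 0, 4.09 and 0 CPM in controls, against 6.55, 74.1 and 3.24 CPM in treated samples. Control 2 lay above osimertinib 3 in CPM, but not in FPKM (4.6 against 4.68), and the log2 fold change was 4.38 ± 2.29 (SE, unadjusted p = 0.103 by edgeR).

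Among the high sulfur numbers, Krtap24-1 and Krtap26-1, at the near end of the cluster, had separated groups. Krtap24-1 was at 0, 1.15 and 0 CPM in controls, against 5.15, 21.9 and 2.75 CPM in treated samples (log2 fold change 4.73 ± 1.93, SE). Krtap26-1 was at 0, 1.59 and 0 CPM in controls, against 4.20, 62.5 and 3.01 CPM in treated samples (5.49 ± 2.22, SE). In these genes osimertinib 3 exceeded control 2 by 2.40 and 1.895 times.

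In the other 4 tested numbers control 2 was above osimertinib 3 in CPM. In FPKM this held for Krtap13-1 and Krtap11-1 but not for Krtap14 (4.99 in control 2, 6.32 in osimertinib 3) or Krtap15 (4.70 and 5.46). Krtap13-1 had 0, 5.72 and 0 CPM in controls, against 10.5, 85.3 and 4.47 CPM in treated samples, with the largest unadjusted p of the cluster (0.117 by edgeR, log2 fold change 4.15 ± 2.28, SE). Krtap14, once named Pmg1, had 0, 6.54 and 0 CPM in controls, against 15.5, 189 and 6.47 CPM in treated samples (5.03 ± 2.45, SE). Krtap15, once named Pmg2, had 0.0548, 7.29 and 0.0630 CPM in controls, against 12.7, 255 and 6.63 CPM in treated samples (5.23 ± 2.36, SE). Krtap14 and Krtap15 lie on opposite strands, and their spans in the table overlap by 5931 bases, so without the counting rule their reads cannot be told apart there. Krtap27-1 was near the floor, with 0, 4 and 2 counts in controls and 6, 124 and 4 in treated samples.

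By class, 13 of 16 tested glycine-tyrosine members and 2 of 6 tested high sulfur members had separated groups, against 11.3% of all genes tested, with median log2 fold changes of 4.83 and 4.88. In FPKM these numbers were 15 and 4, against 11.5% of all genes tested. The glycine-tyrosine members held 58.8% of the cluster's counts in control 2 (95% Wilson interval 57.4 to 60.1) and 64.4%, 64.2% and 67.8% in osimertinib 1, 2 and 3 (63.7 to 65.2, 64.0 to 64.4 and 66.7 to 68.9). The intervals cover counting error only. Controls 1 and 3, with 19 and 59 counts, gave 36.8% (19.1 to 59.0) and 62.7% (50.0 to 73.9), too few counts to place them. Because control 2 is then the only control with a usable share, this difference has no replicate in 1 group and was not tested.

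Libraries also differed in which members they favoured. Osimertinib 2 exceeded osimertinib 1 by 2.98 to 6.99 times in the 5 neighbours Krtap19-1 to Krtap19-5, by 9.25 to 11.7 times in Krtap8-1, Krtap7-1 and Krtap11-1, and by 15.9 to 23.1 times in Krtap6-1, Krtap6-5 and Krtap6-3, while Krtap6-2, which lies apart from these 3, stood at 10.1. The counting intervals of the first and last of these sets do not meet, the lowest being 2.98 for Krtap19-4 (95% exact interval 2.51 to 3.55) and the highest 23.1 for Krtap6-3 (16.2 to 34.3). Krtap15 stood at 20.2 (18.7 to 21.7) and Krtap24-1 at 4.25 (3.74 to 4.83). These sets were chosen after their values were seen, and both libraries belong to 1 group, so the differences are a description of 2 libraries.

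The ratio of osimertinib 3 to control 2 also differed among members. Its 95% interval lay above 1 in 12 members, below 1 in 3 (Krtap11-1, Krtap13-1 and Krtap16-3) and included 1 in 9. It was highest in Krtap21-1 at 4.35 (2.66 to 7.49), apart from Krtap20-2, which had no count in control 2, and 0.645 (0.587 to 0.707) in Krtap11-1. These ratios include the TMM factors, which were 0.806 in control 2 and 1.02 in osimertinib 3, and all move together with them. Of the 22 tested members, osimertinib 3 was below control 2 in 7 by CPM and in 3 by FPKM. The intervals cover counting error only and compare 1 library with 1 library, not the treatments.

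**Figure D4:**
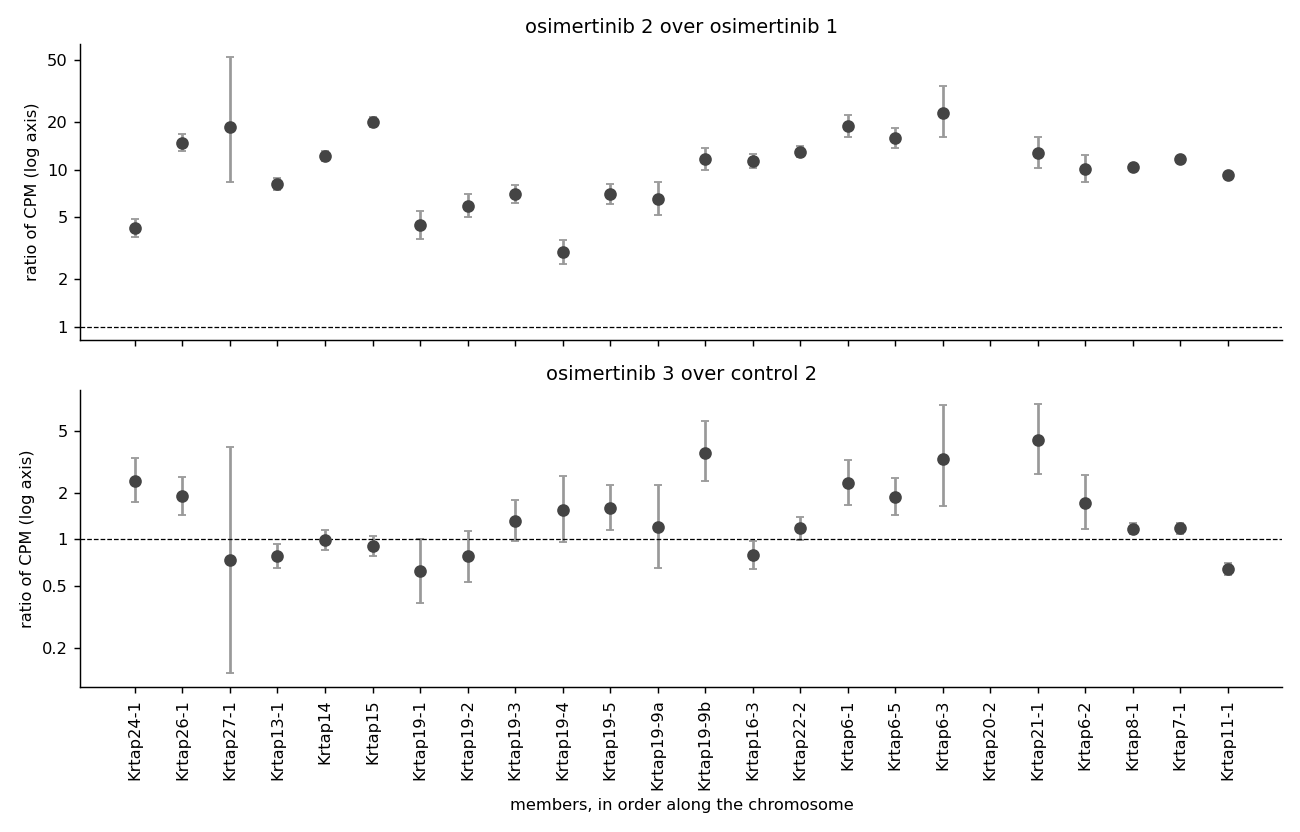
Ratio of CPM between 2 libraries for each member in chromosome order (points, log axis, with 95% exact counting intervals), osimertinib 2 over osimertinib 1 above and osimertinib 3 over control 2 below. The dashed line is a ratio of 1, and Krtap20-2 is not drawn because a library without a count gives no ratio. In the upper panel Krtap19-1 to Krtap19-5 lie at 2.98 to 6.99 and Krtap6-1, Krtap6-5 and Krtap6-3 at 15.9 to 23.1.

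The Krtap genes of other chromosomes showed the same direction. Of these 33 genes 23 were tested, all with positive log2 fold changes (median 5.74), 18 had separated groups against 11.3% of all genes tested, and edgeR called 0. DESeq2 called 2 of the 9 with an adjusted p, against 3.42% of all genes. Krtap4-8 was at 0, 0.0663 and 0 CPM in controls, against 0.655, 17.7 and 1.73 CPM in treated samples, and Krtap4-1 had a log2 fold change of 6.14 ± 1.44 (SE). Krtap4-9 was at 0 in all controls. Krtap3-2 differed from these, with 10.7, 9.48 and 12.2 CPM in controls, against 9.94, 56.2 and 3.44 CPM in treated samples. It made up 77.3% and 75.9% of these genes' counts in controls 1 and 3. Chromosome 16 members had 0.0250, 3.61 and 0.0578 counts per count of other Krtap genes in controls and 4.17, 3.87 and 2.65 in treated samples. The groups overlapped through control 2 (difference of mean log2 ratios 4.33, p = 0.2 by a two-sided exact permutation test), and without Krtap3-2 the ratio in control 2 was 5.30, above all treated samples (4.94, 4.18 and 2.87).

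Hair shaft keratins form the filaments that these proteins surround. Of the type I list (9 genes) 9 of 9 tested were higher (median log2 fold change 4.45, 4 with separated groups), and of the type II list 5 of 5 tested were higher (median 4.70, 3 separated). EdgeR called 0 of either, and DESeq2 called 2 of 8 of type I. For these lists and those below, the shares over all genes were 11.3% with every treated sample above every control and 3.42% called as higher by DESeq2. Krt39 and Krt36 had log2 fold changes of 3.20 ± 0.59 and 4.93 ± 1.38 (SE), and Krt86 and Krt82 of 5.16 ± 2.44 and 4.34 ± 2.05. The cluster gave 0.0107, 0.415 and 0.0264 counts per hair keratin count in controls and 0.233, 0.547 and 0.205 in treated samples. The groups overlapped, since control 2 lay between osimertinib 1 and osimertinib 2. The difference of mean log2 ratios was 2.60, with p = 0.3 by a two-sided exact permutation test. In controls 1 and 3, Krt32 made up 87.6% and 86.3% of the keratin counts. Without Krt32 the ratios were 0.0864, 0.440 and 0.193 in controls and 0.242, 0.562 and 0.212 in treated samples, and the difference was 0.66 (p = 0.4 by the same exact test).

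Where control 2 stood differed among other gene lists of the growing follicle. The regulators of shaft differentiation summed to 598, 457 and 690 CPM in controls and 825, 1622 and 804 in treated samples, with control 2 the lowest of all. The inner root sheath genes, in contrast, summed to 7.63, 191 and 10.1 CPM in controls and 520, 4019 and 484 in treated samples, with control 2 well above the other controls. The regulator sum weighs abundant genes most, and its low value in control 2 does not hold for each regulator. Ovol1 (120, 34.8 and 123 CPM in controls), Gata3 (108, 63.8 and 171) and Vdr (107, 77.4 and 136) were lowest in control 2. Cux1 and Bmpr1a, also abundant, were highest of the controls in control 2. Among the 14 regulators 13 had positive log2 fold changes (median 0.88), 7 had separated groups and 6 were called as higher by DESeq2, while edgeR called 0. Msx2, a homeodomain factor of the matrix, was at 3.27, 7.84 and 4.46 CPM in controls, against 44.0, 128.6 and 49.7 CPM in treated samples (3.84 ± 0.58, SE). Hoxc13 was at 9.84, 13.2 and 14.3 CPM in controls, against 53.7, 133 and 53.1 CPM in treated samples (2.68 ± 0.43, SE). In both, which had the smallest p of their list, control 2 lay below all treated samples. It was the highest control in Msx2 and lay between the other controls in Hoxc13. Among the other regulators called by DESeq2, control 2 was the highest control in Dlx3 (9.80, 19.3 and 9.58 CPM in controls), Lef1 (2.76, 9.04 and 2.66 CPM) and Msx1. In Foxn1 it lay between the other controls. The 7 melanocyte markers, of which the 5 tested were higher with separated groups (median 3.70), summed to 11.8, 31.7 and 13.8 CPM in controls, against 168, 412 and 140 CPM in treated samples.

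Partners of shaft assembly were mixed, with 5 of 9 positive and 4 negative (median 0.75, 4 separated). S100a3, a calcium-binding protein of the hair cuticle, was at 1.52, 60.4 and 3.10 CPM in controls, against 312, 1075 and 149 CPM in treated samples (4.56 ± 1.66, SE). Dsg4, the desmosomal cadherin of the shaft, had a log2 fold change of 4.08 ± 0.86, and DESeq2 called 1 of this list while edgeR called 0. All 9 inner root sheath genes were higher with separated groups (median 4.40), with 0 called by edgeR and 2 of 7 by DESeq2. Those with the smallest p were Tchh, which had the lowest log2 fold change of the list (4.21 ± 1.30, SE), and Krt26 (5.44 ± 1.84).

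**Figure D5:**
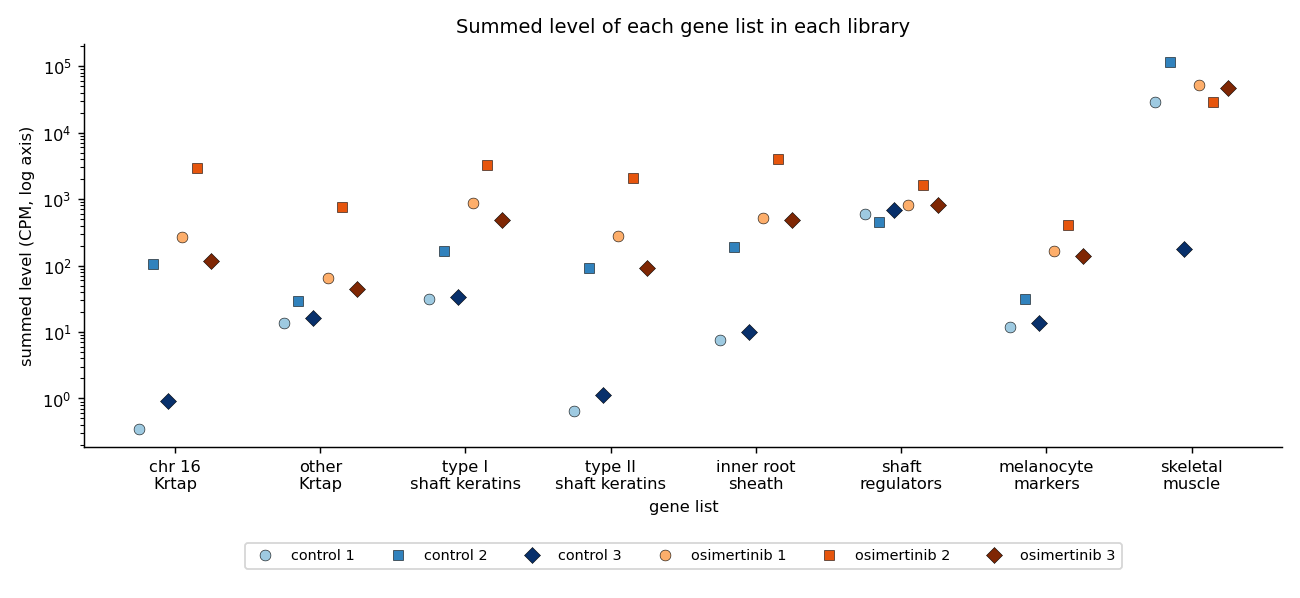
Summed CPM of 8 gene lists in each library (points, log axis). For chromosome 16 Krtap genes control 2 (106.9 CPM) lies beside osimertinib 3 (116.1 CPM), while for melanocyte markers it lies at 31.7 against 140 CPM, and skeletal muscle markers are lowest in control 3 at 176 CPM.

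Markers of other parts of the skin gave the following values. Median log2 fold changes were −0.97 for 7 epidermal, −0.94 for 7 adipocyte, −0.34 for 6 fibroblast, −0.07 for 4 endothelial, 0.13 for 6 sebaceous, 0.48 for 2 leukocyte and −0.26 for 10 skeletal muscle genes tested, and edgeR and DESeq2 called 0 of each. Of 6 markers of the follicle bulge 5 were negative (median −0.82). In 3 every treated sample was below every control, against 1266 of all 13498 genes tested. DESeq2 called 3 as lower, against 398 of the 13436 genes with an adjusted p. The part of these cells in the cluster's levels was not tested.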

How the data were processed

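Per the labels' protocols, polyadenylated RNA was made into libraries with dUTP marking of the second strand and molecular identifiers, and sequenced in pairs. Per the submitters' processing notes, cutadapt 1.9 and the build GRCm38 were used. The sources used here do not give the aligner, counter, annotation or use of strand and identifiers, so reads of similar or overlapping Krtap genes may have been divided in an unknown way. Raw read counts and FPKM values stand side by side in the deposited table; both were computed by the authors. Its coordinates are used as given. A further 6 columns match no sample and were not used.

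Genes whose mean FPKM was 1 or more were tested with edgeR 4.0.16 in R 4.3.3 (quasi-likelihood, TMM, two-sided, Benjamini-Hochberg, threshold 0.05). SE is the log2 fold change over the square root of F. CPM are counts over the TMM-scaled count of tested genes. Sums and ratios were tested by exact permutation. The fits were tested on simulated data. DESeq2 1.42.0 and limma 3.58.1 were alternatives, with other scalings, filters, pseudocounts, a replicate block and left-out libraries. Similar transcripts were found with BLAST 2.17.0. Members and lists were chosen with earlier results of these data known. Members described singly are the most abundant of each subfamily and those with the 3 smallest and 3 largest p, and from each other list the 2 with the smallest p; all members are counted. Krtap19-1, Krtap6-1, Krtap6-2, Krtap4-9, Krtap3-2 and Krt32 are described beyond this rule and were chosen after their values were seen. So were the regulators Ovol1, Gata3, Vdr, Cux1, Bmpr1a, Dlx3, Lef1, Msx1 and Foxn1.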

Additional observations from a re-analysis of the deposited data

How the results depend on the processing

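The number of the cluster's genes called was 0 under every alternative run. Over all genes tested, the number called was 0 in edgeR, 858 with DESeq2, 1 with library totals only, 2 with a mean FPKM minimum of 5, and 17 and 2 with limma on log2(FPKM + 1) and log2(FPKM + 0.1), where the median of all genes moved from −0.05 to 0.07 and 0.10. The median log2 fold change of tested members was 3.17 and 5.26 in these limma fits, and 2.54 to 11.96 with 1 library left out, the highest without control 2, where 14 of 22 members were at 0 in both remaining controls. With those genes at a bound of 3 counts over the group, it was 8.89. It was 2.54, over 18 members, without osimertinib 2. Without both control 2 and osimertinib 2, chosen after seeing the data, it was 10.09, or 7.09 with the bound. Leaving out 1 library gave 0 genes called in each case, differences of 5.50 to 9.63 for the summed level and 1.503 to 4.14 for the ratio to hair keratins, and 15 to 23 members with separated groups. The number of separated members was 23 without both number 2 libraries. With fewer libraries it can only stay or rise, and the share over all genes was not computed for these settings. With the replicate number as a block, the median was 6.22 and 0 genes were called. In that fit 22 members had an unadjusted p under 0.05 in edgeR against 10, and the share over all genes was not computed. The summed level and ratio had p = 0.25 (exact sign flips, the smallest 3 pairs allow). Whether the numbers pair the samples is not known. Deviations of same-numbered samples correlated at 0.222, 0.0294 and −0.115, and those of other combinations at −0.284 to 0.111, too few values to decide it. All 341 fold changes of single members under the alternatives kept their sign, and 0 of the 333 with an adjusted p passed the threshold; DESeq2 gave none for 8 members. FPKM in place of CPM, chosen after seeing the data, gave 19 members with separated groups. Depth limits Krtap20-2 and Krtap27-1, and all members in controls 1 and 3.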

Other observations

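The interval also holds 15 genes in the table that are not named Krtap, of which 7 passed the filter and 2 were at 0 in all 6 libraries. Gm10229, between Krtap22-2 and Krtap6-1, had 0, 117 and 0 counts in controls and 474, 9067 and 380 in osimertinib 1, 2 and 3, with a log2 fold change of 5.95 ± 2.34 (SE, adjusted p = 0.343 by edgeR). Gm10228 had 0, 70 and 0 counts in controls and 186, 3750 and 229 in treated samples, and 1110025L11Rik had 0, 61 and 4 and then 153, 2694 and 123. In these 3 genes, which lie among subfamilies 6 and 22, every treated sample exceeded every control. This held in 5 of the 15, against 7.53% of all genes with any count.

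The 6 genes of the stretch between Krtap6-3 and Krtap20-2 had most of their counts in osimertinib 2. Gm6358 had 0, 3 and 0 counts in controls and 0, 340 and 49 in treated samples, and Gm10061 had 9, 4 and 0 and then 0, 425 and 51. Gm34396 had 2, 0 and 0 counts in controls and 0, 181 and 13 in treated samples, and Gm7735 had 5, 0 and 1 and then 0, 51 and 5. 1110057P08Rik had 0 counts in all controls and 4, 242 and 10 in treated samples, and Gm9789 had counts in osimertinib 2 only (79). Osimertinib 1 held 15530 counts of the named cluster against 7124 in osimertinib 3, but had 0 counts in 5 of these 6 genes, as it had of Krtap20-2 beside them. This stretch was chosen after its values were seen, and differences between treated samples were not tested.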
